A study of Mus musculus with 5 samples.

Results

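The fragments described here are short stretches of mouse DNA between MspI cut sites that hold 2 or 3 CpGs and were partly methylated in a non-clonal population of CD8+ T cells. They number 9727 of 531368 fragments with a CpG. Of 176882 fragments with 2 or 3 CpGs, 46965 had at least 10 molecules with a call in each clone library and at least 5 on the odd and on the even lines of the population file, and 9727 of those lay at 20 to 80% methylation on the odd lines. They were thus chosen by the level measured on the odd lines, which is given as a description only. Population levels set against a clone come from the even lines, which had no part in the choice, unless all lines are named. Of the members, 3545 held 2 CpGs and 6182 held 3.

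The DNA came from naive splenic T cells of C57BL/6 mice that were cultured with IL2 and sorted for CD8. The 5 samples comprise a single non-clonal population and 2 replicates for either of the clones, clone 1 and clone 2. Each clone was grown from 1 sorted founder cell, with 15 cell divisions given in the labels. Clones 1 and 2 and the population share the strain, the cell type label and the culture, and differ in passing through 1 cell. No number of cell divisions is given for the population, so passage through 1 cell and number of divisions cannot be told apart. Each clone stands for 1 founder cell and not for clones at large. Both replicates of a clone share 1 deposited file and could not be told apart, so each clone entered as 1 pooled library, and no value below has a spread between replicates. The CD8 label was not checked against marker genes, because fragments carry numbers and no gene names here.

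CpG methylation is copied after replication, when the maintenance methyltransferase Dnmt1 restores the mark on the new strand opposite a methylated CpG. Sites away from CpG islands are mostly methylated in somatic cells, so a middle level there differs from the usual state. Members were chosen by their number of CpGs, without length or place, so whether they lie away from islands was not examined. A middle level in a cell mixture can stand for cells in different complete states, for alleles that differ, or for CpGs of 1 fragment at different levels. A clone passes through 1 cell and so begins with at most a few copies of each CpG.

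The layout of the calls bears on every value of these fragments. MspI cuts within CCGG, so a fragment begins and ends with a CpG of a cut site, and no line in the 3 files held a string of 1 CpG. On members with 2 CpGs, 99.1% of plus-strand calls in the population were at the first CpG and 99.2% of minus-strand calls at the last one. In the clones these shares were 99.0% and 99.1% in clone 1 and 98.6% and 98.7% in clone 2. A molecule of a member with 2 CpGs therefore carried 1 call in 99.3%, 99.2% and 98.8% of cases in the population, clone 1 and clone 2. Members with 3 CpGs were read at the first and middle CpG on the plus strand and at the middle and last CpG on the minus strand, and 73.9%, 74.7% and 72.6% of their molecules carried 2 calls. The level of a fragment is thus an average over CpGs that were mostly read on separate molecules.

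The libraries held 5588357 molecules with a call in the population file, 7013054 in clone 1 and 5567534 in clone 2, of which 234213, 310346 and 254485 fell on members. A member had a median of 12 molecules on the odd lines (5 to 41), 12 on the even lines (5 to 42), 31 (10 to 119) for clone 1 and 25 (10 to 142) for clone 2. Plus-strand molecules made up 49.9%, 49.7% and 49.7% of them. Molecules backed by at least 2 reads made up 47.6% in the population library, 28.7% in clone 1 and 42.1% in clone 2. Fragments are named by the numbers in the files, and no chromosome, gene or sequence is given for them because no genome of the files' build was used here.

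On the odd lines that chose them, members stood at a mean of 63.3%. On the even lines the mean level was 69.1% (SD over members 22.4), with a median of 73.7% and quartiles of 55.9 and 85.7. Clone 1 stood at 70.7% (SD 24.2), with a median of 76.3% and quartiles of 56.3 and 90.9. Clone 2 stood at 72.5% (SD 24.1), with a median of 78.6% and quartiles of 58.3 and 92.3. Members with 2 CpGs had higher means than members with 3 in each library, at 72.3, 74.7 and 75.7% against 67.2, 68.4 and 70.7%.

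Fragments just inside and just outside the bounds of the choice lay close together. The 265 members at 20 to 25% on the odd lines stood at 26.7% on the even lines, 33.0% in clone 1 and 34.3% in clone 2, and the 222 fragments just under 20% stood at 20.0, 26.9 and 29.7%. The 3207 members at 75 to 80% stood at 82.9, 83.0 and 84.5%, and the 3351 fragments just above at 86.8, 86.7 and 88.0%. Most members sat in the upper part of the window: 6684 were at 60 to 80% on the odd lines, 1960 at 40 to under 60% and 1083 at 20 to under 40%.

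In both clones more members stood near a complete state than in the population, the library whose middle level chose them. Levels of 90% or more were found at 1701 members on the even lines (17.5%), 2658 in clone 1 (27.3%) and 2979 in clone 2 (30.6%). Levels of 10% or less were found at 114, 210 and 208 members. The class of 40 to 60% held 1848, 1565 and 1498 members. The clones had more molecules per member than the even lines, which alone changes such counts, so libraries were also compared at 5 molecules per member by the exact expectation of a draw without replacement. A molecule counted as methylated when over 50% of its observed CpGs were, which for a molecule with 2 calls means both.

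At 5 molecules, 19.4% of members were expected to show 5 methylated ones on the even lines, against 27.3% in clone 1 and 30.2% in clone 2. Members with 0 of 5 made up 6.74%, 10.6% and 9.25%. The split of 2 or 3 of 5 fell from 38.2% of members to 30.1% and 29.0%. Among members with 2 CpGs the fullest class was 5 of 5, with 32.2%, 41.7% and 44.1%, and 0 of 5 was rare, with 2.67%, 4.33% and 4.48%. Members with 3 CpGs were divided more evenly, with 12.0%, 19.0% and 22.2% at 5 of 5 and 9.08%, 14.2% and 12.0% at 0 of 5. These values hold no replicate error and describe the 3 libraries. They depend on the rule for molecules: with 50% or more of observed CpGs as the bound, 0 or 5 of 5 made up 42.7%, 52.4% and 54.8% of members, against 26.1%, 37.9% and 39.4%.

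**Figure D1:**
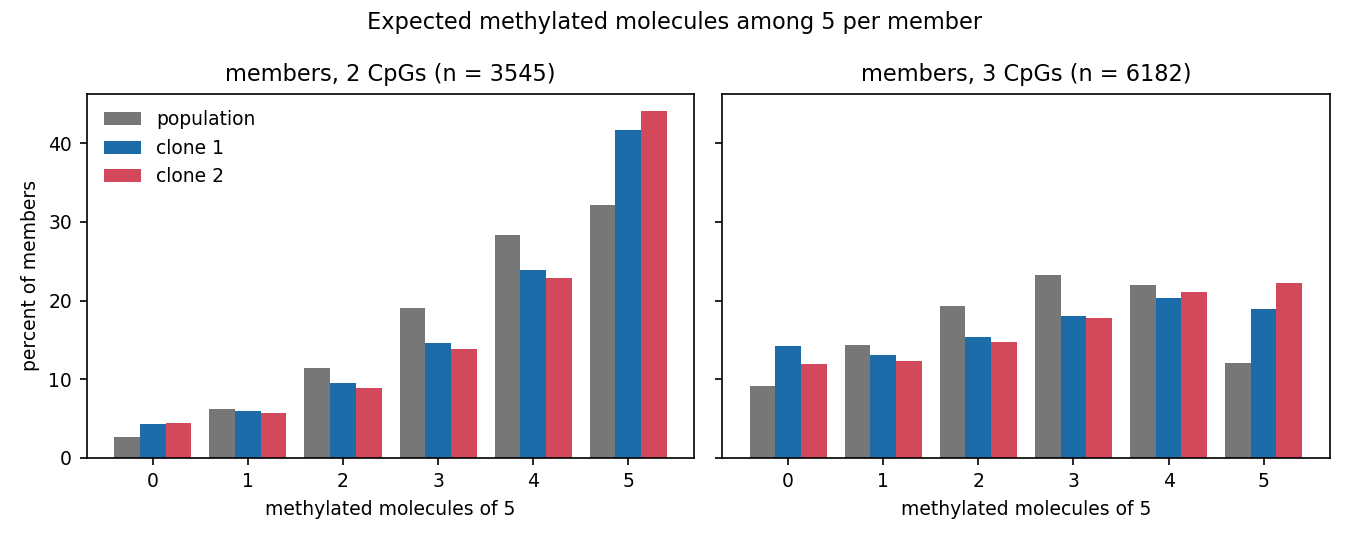
Expected share of members (y axis, percent) with 0 to 5 methylated molecules among 5 (x axis) in the population (grey, even lines), clone 1 (blue) and clone 2 (red), for 3545 members with 2 CpGs and 6182 with 3. Bars of both clones exceed the population at 0 and 5 and lie under it from 1 to 4.

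Whether members showed 0 of 5 or 5 of 5 methylated molecules followed the starting level. Members at 20 to under 40% on the odd lines showed 0 of 5 at 34.4% on the even lines, 38.0% in clone 1 and 33.6% in clone 2, and 5 of 5 at 1.17%, 4.37% and 6.04%. Members at 40 to under 60% showed 0 of 5 at 10.1%, 16.8% and 14.3%, and 5 of 5 at 6.35%, 13.8% and 15.7%. Members at 60 to 80% showed 0 of 5 at 1.27%, 4.37% and 3.81%, and 5 of 5 at 26.1%, 34.9% and 38.3%. Members with 0 or 5 of 5 went from 35.6% to 42.3% and 39.7% in the lowest class. In the middle class they went from 16.5% to 30.6% and 30.003%, and in the highest from 27.4% to 39.3% and 42.1%. A count of 0 of 5 need not be a level near 0, since molecules with 1 of 2 calls methylated count as not methylated. In the lowest class, levels of 10% or less were found at 8.03% of members on the even lines, 12.9% in clone 1 and 12.5% in clone 2.

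Variation between molecules at the same CpG was lower in both clones. The chance that 2 molecules of a library differ at a CpG, averaged over the CpGs of a fragment and free of depth, is called the pair difference here, and is 0 for a uniform CpG and 0.5 for an even mixture. It was 0.302 on the even lines (SD over 9724 members 0.173), 0.219 in clone 1 (SD 0.141) and 0.211 in clone 2 (SD 0.148). Clone 1 was lower by 27.3% and clone 2 by 30.1%. Members were chosen for a middle level in the population library, where the pair difference is high. The even lines belong to that library, so the fall cannot be told apart from this choice. By starting level, the fall was 27.8% and 28.6% at 20 to 40%, 32.7% and 32.1% at 40 to 60%, and 25.1% and 29.6% at 60 to 80%.

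End and middle CpGs of the members differed in level and in variation. Over the libraries, the end CpGs of members with 3 CpGs averaged 72.4%, 74.7% and 75.7% in the population, clone 1 and clone 2, and the middle CpG 62.6%, 62.9% and 66.2%. The middle CpG is read on both strands and so weighs more in the level that chose the members. Its pair difference was 0.370, 0.277 and 0.268, against 0.2702, 0.192 and 0.182 at the ends. The ends of members with 2 CpGs were close to the latter in each library, with 0.282, 0.2002 and 0.195.

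The distance between libraries was measured as 1 minus the mean pair difference within 2 libraries over that between them, called the shift here. Over all member CpGs it was 0.146 between clone 1 and the population, 0.149 between clone 2 and the population, and 0.259 between the clones. Between even lines whose number is a multiple of 4 and the other even lines it was 0.00209, which is the background of the same measure within 1 library. Plus and minus strands of the same middle CpG had a shift of 0.0163 on the even lines, 0.0213 in clone 1 and 0.0139 in clone 2.

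Other fragments measured the same way give the setting of these values, with no test of the difference. Fragments with 2 or 3 CpGs over 80% on the odd lines, 35363 in number, had pair differences of 0.127, 0.104 and 0.0961 in the population, clone 1 and clone 2, and shifts of 0.0785 and 0.0779 from the population. The 1875 such fragments under 20% had 0.137, 0.127 and 0.133, with shifts of 0.185 and 0.191, wider than those of members. The fall in the clones was 18.4% and 24.3% over 80%, and 7.28% and 2.77% under 20%. The 14124 intermediate fragments with 4 to 9 CpGs had 0.327, 0.230 and 0.226, with shifts of 0.162 and 0.168. The 2015 intermediate fragments with 10 or more CpGs had 0.370, 0.271 and 0.2705, with shifts of 0.157 and 0.160. Among intermediate fragments the members thus had the lowest pair difference in each library, and their fall in the clones lay within the range of the other sets. The sets also differed in mean level, and the pair difference depends on the level. In the population the mean levels were 69.8% for members, 60.4% with 4 to 9 CpGs and 45.7% with 10 or more. Members at 40 to 60% on the odd lines had a pair difference of 0.377 in the population.

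At part of the members the ends stood at different levels. Among 1231 members with 2 CpGs and at least 5 calls at both ends in each library, the ends differed by 50 percentage points or more at 224 on the even lines (18.2%), 293 in clone 1 (23.8%) and 317 in clone 2 (25.8%). Mean levels of the first and last CpG were close, at 70.9% and 71.4% on the even lines, 73.9% and 74.4% in clone 1, and 75.1% and 74.8% in clone 2. Molecules at the same end were unlike with a chance of 0.295 on the even lines, 0.205 in clone 1 and 0.202 in clone 2. Molecules at opposite ends were unlike with a chance of 0.379, 0.361 and 0.355. Within an end the chance was lower in the clones by far more than between ends.

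Each of these 1231 members can be put in a class by its ends. Both ends stood at 80% or more at 366 members on the even lines, 457 in clone 1 and 486 in clone 2. Both stood at 20% or less at 26, 29 and 27. Opposite ends, with 1 at 80% or more and 1 at 20% or less, were found at 72 members on the even lines, 122 in clone 1 and 119 in clone 2. At least 1 end lay between 20 and 80% at 767, 623 and 599. A step of 50 points or more was found in both clones and in the same direction at 121 members, in opposite directions at 6, in clone 1 alone at 166 and in clone 2 alone at 190. The even lines had fewer calls per end than the clones.

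**Figure D2:**
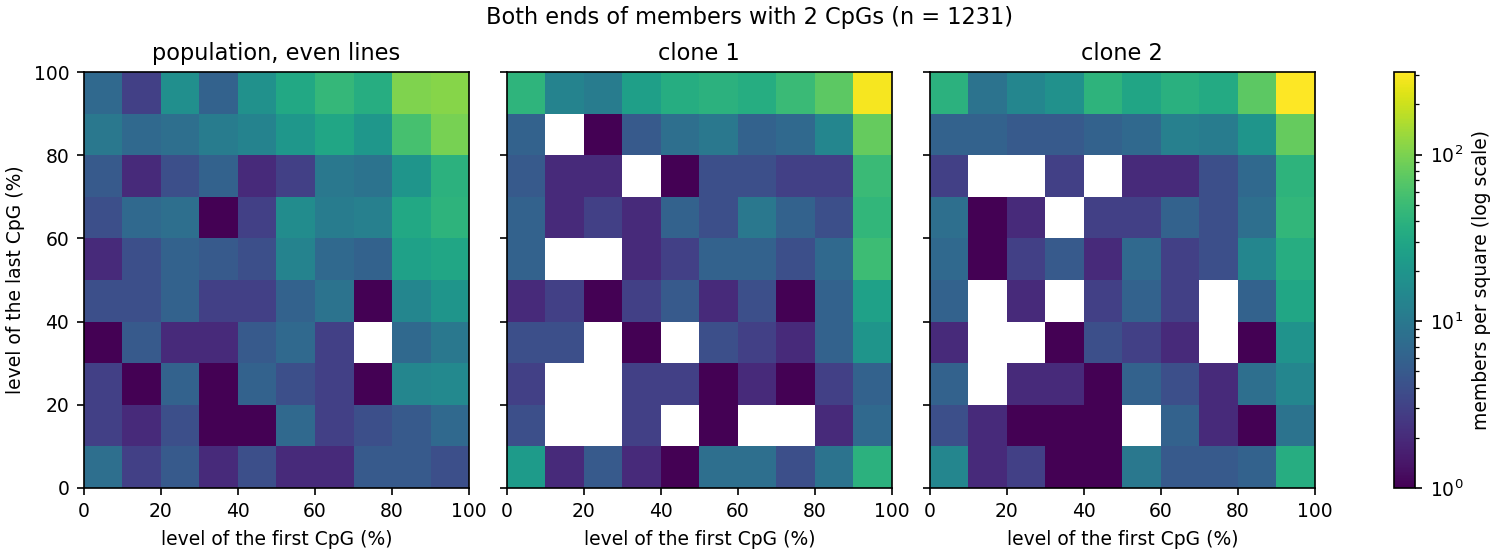
Level of the first CpG (x axis, percent) against the last CpG (y axis, percent) for the 1231 members with 2 CpGs and at least 5 calls at both ends in each library, in the population (even lines), clone 1 and clone 2. Colour gives members per square of 10 by 10 points on a log scale. Clone members gather along the upper and right edges, where 1 end is fully methylated, and in the corners.

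Members with 3 CpGs showed the same mixture with a middle site. Among 1882 with at least 5 calls at every CpG in each library, the ends differed by 50 points or more at 310 on the even lines, 418 in clone 1 and 398 in clone 2. All CpGs stood at 80% or more at 227, 408 and 469 members, and all at 20% or less at 4, 13 and 18. Only complete sites, but of both kinds, were found at 58 members on the even lines (3.08%), 171 in clone 1 (9.09%) and 185 in clone 2 (9.83%). The rest, 1593, 1290 and 1210, had at least 1 CpG between 20 and 80%.

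Neighbouring CpGs on 1 molecule of these members matched little more often than on different molecules. On members with 3 CpGs, neighbouring calls of the same molecule were unlike in 36.1% of cases in the population, against 40.03% for calls of different molecules of the fragment. In clone 1 these were 37.1% and 39.1%, and in clone 2 35.5% and 37.5%. The share on the same molecule was lower by 9.85% on the even lines, 5.15% in clone 1 and 5.19% in clone 2. Intermediate fragments with 4 to 9 CpGs had it lower by 21.0%, 12.6% and 11.5%, and those with 10 or more CpGs by 39.3%, 31.4% and 29.5%. Distances in bases between CpGs were not used here, and this order across CpG number was not tested.

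Single end CpGs of the clones gathered at complete levels, with a further rise about the middle. Of 10136 end CpGs with at least 15 calls in clone 1, 55.1% stood at 90% or more, and of 7076 in clone 2, 57.6%. At 20 to under 30% lay 169 and 123 end CpGs, at 50 to under 60% more, 636 and 411, and at 70 to under 80% fewer, 493 and 303. In the population only 62 end CpGs had as many calls on the even lines, and 31 of them (50%) stood at 90% or more. Under 10% lay 0 of these 62, against 679 end CpGs in clone 1 (6.70%) and 454 in clone 2 (6.42%). The 62 are too few to set a share under 10% beside those of the clones. Of 5490 middle CpGs in clone 1, 580 lay under 10%, 160 at 10 to under 20%, 505 at 40 to under 50%, 432 at 60 to under 70% and 1555 at 90% or more. In clone 2, with 4721, these classes held 395, 144, 339, 424 and 1486, and counts rose from 10% up to the top but for a dip to 401 at 70 to under 80%. On the even lines of the population 1244 middle CpGs had at least 15 calls, with 2.33% under 10%, 10.1% at 40 to under 50% and 8.52% at 90% or more, and the fullest class was 60 to under 70% with 17.8%.

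Few members passed a test against the population. A two-sided Fisher's exact test compared the methylated molecules of each fragment, over all fragments with at least 10 molecules in the clone and 5 on the even lines. It took both strands together. The strands read different CpGs, so where libraries differ in strand depth the test sets partly different CpGs against each other. Members were called where the Benjamini-Hochberg adjusted p was under 0.05 and the share of methylated molecules differed by 20 points or more. In clone 1, 200 of 9727 members were called (2.06%), 90 higher and 110 lower than the population. The background over all 199904 fragments tested was 0.443% in either direction, 0.246% higher and 0.197% lower. In clone 2, 147 members were called (1.51%), 87 higher and 60 lower, against 0.403% of 165304 fragments in either direction, 0.271% higher and 0.132% lower. The shares are not particular to members. Intermediate fragments with 4 to 9 CpGs were called at 2.41% in clone 1 and 2.29% in clone 2. Those with 10 or more CpGs were called at 2.63% and 1.94%. The tests compare molecules of these libraries, not conditions, and both comparisons share the even lines of the population.

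Before adjustment, 1804 members (18.5%) had a p under 0.05 in clone 1 and 1725 (17.7%) in clone 2, against 5.37% and 5.32% of all fragments tested. For intermediate fragments with 4 to 9 CpGs these shares were 19.3% and 19.1%, and with 10 or more CpGs 19.2% and 18.6%. Called members had medians of 39 clone and 14 population molecules in clone 1, and 33 and 14 in clone 2, and differed by medians of 59.97 and 63.2 points. Counts of calls depend on these depths. Over all members, called or not, the share of methylated molecules differed from the population by a mean of 1.29 points in clone 1 and 3.67 in clone 2, against 0.889 and 1.64 over all fragments tested. With a molecule called methylated at 50% or more of its observed CpGs, the counts were 82 and 67, of which 49 and 39 were also called under the main rule. With the odd and even lines exchanged, which also changes the members, 63 and 49 were called both ways, of 200 and 147. With the test stratified by strand, 207 and 132 members were called, of which 167 and 115 were also called under the main rule. No share over all fragments was taken under these settings.

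The levels of called members depend in part on the rule for molecules. A molecule with 2 calls counts as methylated only if both are. Where most molecules carry 2 calls, a higher call thus ends with both CpGs methylated, while a lower call can leave 1 CpG methylated. Either call can come from a change at 1 CpG, a higher one where the other CpG was methylated already. Members with 2 CpGs, mostly read at 1 call per molecule, made up 25 of the 90 higher and 20 of the 110 lower in clone 1. In clone 1, none of the 22 molecules of fragment 1220724 counted as methylated, yet its level was 48.8%. The 90 members higher in clone 1 averaged 48.1% in the population and 95.0% in clone 1, with 82 of them at 90% or more. The 110 lower in clone 1 fell from 78.9% to 33.2%, with 13 at 10% or less and 45 at 40 to 60%. The 87 higher in clone 2 went from 43.7% to 93.8%, with 71 at 90% or more. The 60 lower in clone 2 went from 81.0% to 32.3%, with 10 at 10% or less and 27 at 40 to 60%. Because the even-line values entered both the call and these means, the means of the population are a description of the called members.

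The members with the widest differences from the population show both kinds of change. On the even lines fragment 1477475, with 2 CpGs, was methylated at 0 of 11 molecules, with a 95% Wilson interval of 0 to 25.9%. Clone 1 had 37 of 40 methylated molecules (80.1 to 97.4%). Clone 2 had 39 of 41 (83.9 to 98.7%). Its odd lines had 4 of 10 methylated molecules. Adjusted p was 5.66e-05 in clone 1 and 3.97e-05 in clone 2 by Fisher's exact test. Fragment 1477476, the next number, holds 5 CpGs, and its calls were methylated at 17.4% on the even lines, 92.6% in clone 1 and 80.6% in clone 2. The neighbour was read on separate molecules and was likewise higher in both clones, though on the reading given below consecutive numbers share a cut site.

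On the even lines 20 of 21 molecules of fragment 494473, with 3 CpGs, were methylated (77.3 to 99.2%). Clone 1 had 4 of 29 (5.50 to 30.6%) and clone 2 had 9 of 20, with an adjusted p of 4.86e-05 in clone 1 by Fisher's exact test. Its middle CpG was lower: 17 of 18 calls were methylated on the even lines, 4 of 29 in clone 1 and 8 of 19 in clone 2. The first CpG had 8 of 9, 22 of 22 and 13 of 13 methylated calls, and the last 11 of 11, 3 of 3 and 1 of 1. Its odd lines had 11 of 18 methylated calls at the middle CpG, below the even lines. The even lines gave 9 of 9 methylated molecules for fragment 1174376, with 3 CpGs, and the odd lines 5 of 10. Clone 1 held 20 of 28, against 0 of 15 for clone 2, where its middle CpG had 0 of 15 methylated calls and its first CpG 4 of 4.

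Between the clones, 1413 of 9727 members were called (14.5%), 590 higher in clone 1 and 823 higher in clone 2, over all fragments with at least 10 molecules in both clones. The background over 184187 fragments was 3.78% in either direction, 1.71% higher in clone 1 and 2.06% lower in clone 1. Before adjustment 3010 members (30.9%) had a p under 0.05, against 9.28% of all fragments. Called members differed by a median of 48.5 points at medians of 36 and 31 molecules. Among other intermediate fragments, 14.1% of those with 4 to 9 CpGs and 13.1% of those with 10 or more were called, and 4.93% of fragments with 2 or 3 CpGs over 80%. This comparison rests on more molecules than those with the even lines, so the counts do not rank the comparisons. With methylated molecules taken at 50% or more of observed CpGs, 794 members were called, and with 1 strand 552 (plus) and 532 (minus) of the fewer members that had enough molecules. With the test stratified by strand, 1529 were called, 1360 of them also under the main rule. No share over all fragments was taken under these settings.

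The same rule bears on the levels of members called between the clones, since molecules that lose 1 of 2 adjacent CpGs all count as not methylated while the fragment stays at a middle level. The 590 higher in clone 1 averaged 84.6% there and 44.0% in clone 2, where 221 stood at 40 to 60% and 45 at 10% or less. The 823 higher in clone 2 averaged 84.6% there and 44.1% in clone 1, where 300 stood at 40 to 60% and 60 at 10% or less. Values of both clones entered the call, so the distance between their means follows from the choice. The even lines did not enter this call and stood at 65.3% and 65.4%, against a mean of 69.1% over all members. Their place between the clones is therefore a description only. Members with 2 CpGs were called at 11.8% and members with 3 at 16.1%. By odd-line level, members with 2 CpGs were called at 19.3, 17.2 and 9.31% from the lowest class to the highest, and members with 3 at 14.0, 17.6 and 16.0%.

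Levels of the clones were set side by side. Both stood at 80% or more at 3115 members (32.0%), both at 20% or less at 157, and both between at 3085 (31.7%), a class wide enough to hold unlike levels. Clone 1 was at 20% or less and clone 2 at 80% or more at 37 members, and the reverse was found at 25. With stricter bounds of 10 and 90%, 8 and 6 members had opposite complete states. Both clones lay at 40 to 60% at 444 members (4.56%). Levels differed by 50 points or more at 404 members (4.15%). Pearson's r of the levels was 0.577 over 9727 members, a description of fragments that share these 2 libraries and a population level chosen between bounds.

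**Figure D3:**
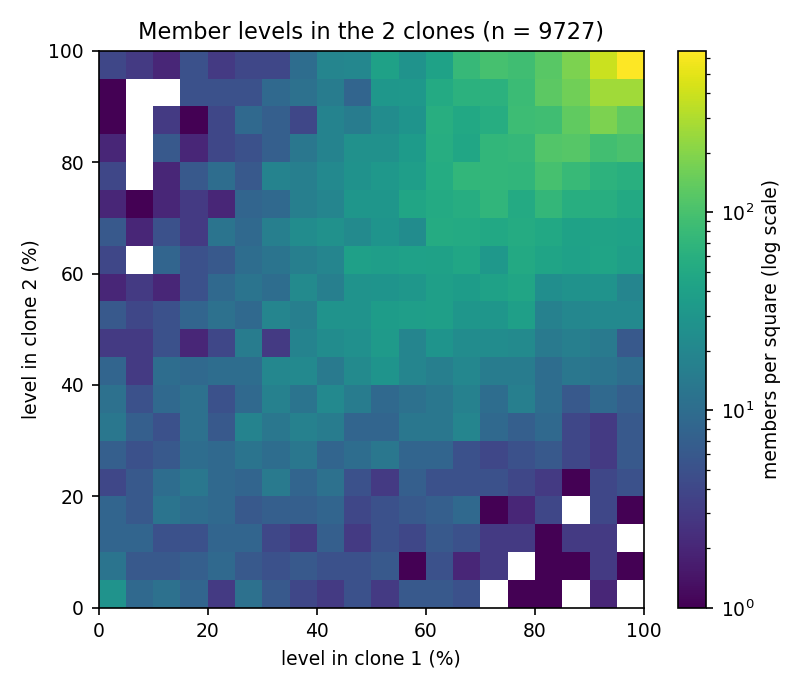
Level of each of 9727 members in clone 1 (x axis, percent) and clone 2 (y axis, percent), with members per square of 5 by 5 points in colour on a log scale. The fullest squares lie in the upper right corner, where 1560 members stand at 90% or more in both clones, and opposite corners are nearly empty.

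Where CpGs of a member differed widely between the clones, it was mostly a single one. Among 1264 members with 2 CpGs and at least 10 calls at both in each clone, 265 (21.0%) had 1 CpG that differed by 50 points or more and 18 (1.42%) had both. Among 1999 members with 3 CpGs and as many calls, 494 (24.7%) had 1 such CpG, 100 (5.00%) had 2 and 10 had all 3. At 8 members with 2 CpGs and 31 with 3, CpGs of the same fragment differed that far in opposite directions. Of the 494 members with 3 CpGs and 1 such site, it was the middle CpG at 169. Among members called between the clones with as many calls, 149 of 197 with 2 CpGs and 253 of 497 with 3 differed that far at 1 CpG, and 38 and 163 at none.

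To see how far a difference reached, CpGs were taken in pairs that were read on separate molecules, with at least 10 calls each in each clone. On opposite strands of the same middle CpG, the clone 1 minus clone 2 difference had a Pearson's r of 0.837 over 2332 CpGs. Where the plus strand differed by 50 points or more, at 328 CpGs, the minus strand differed by a median of 53.2 points in the same direction, and by 20 points or more at 305 of them (93.0%). None of the 328 went 20 points in the opposite direction. Both strands share the clones and the libraries.

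Consecutive fragment numbers gave another reading of the same site. Facing ends of fragments with consecutive numbers had levels with an r of 0.971 over 14850 site pairs in clone 1, against 0.744 over 12666 when 1 number was skipped, as for ends that share a cut site. In clone 2 these were 0.968 and 0.773, and in the population, on all lines, 0.960 and 0.763. The files do not state how fragments were numbered, so this reading rests on the values. Where a member was on either side, the facing ends had an r of 0.916 in clone 1, 0.905 in clone 2 and 0.820 in the population, again on all lines, and 0.257, 0.288 and 0.322 with 1 number skipped. At 87 member ends that differed by 50 points or more between the clones, the facing end of the next number differed by a median of 56.9 points in the same direction, by 20 points or more at 83 (95.4%) and by as much in the opposite direction at 0.

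Coefficients were lower for the next CpG along the fragment. From an end CpG to the middle CpG of members with 3, r was 0.118 over 4246 pairs. At 478 end CpGs that differed by 50 points or more, the middle CpG differed by a median of 4.20 points in their direction, with 166 (34.7%) at 20 points or more the same way and 88 (18.4%) the opposite way. From end to end r was 0.0536 over 2476 pairs for members with 2 CpGs, with 63 of 298 the same way and 46 the opposite way, and 0.0713 over 3896 pairs for members with 3. From a member end to the far end of the next fragment r was 0.121 over 800 pairs. End-to-end pairs enter once from each side.

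Pairs were also restricted to those with both CpGs at 20 to 80% on the odd lines. From end to middle, r was then 0.141 over 1242 pairs, with 82 of 216 at 20 points or more the same way and 46 the opposite way. From end to end it was 0.101 over 512 pairs for members with 2 CpGs and 0.0562 over 600 for members with 3. The middle CpG on opposite strands still had 0.841 over 1901. Neighbouring CpGs at the ends of intermediate fragments had 0.292 over 2273 pairs with 4 to 9 CpGs, with 213 of 454 the same way and 70 the opposite way, and 0.271 over 265 pairs with 10 or more CpGs. These coefficients describe CpGs, which are not independent replicates, and their order was not tested.

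**Figure D4:**
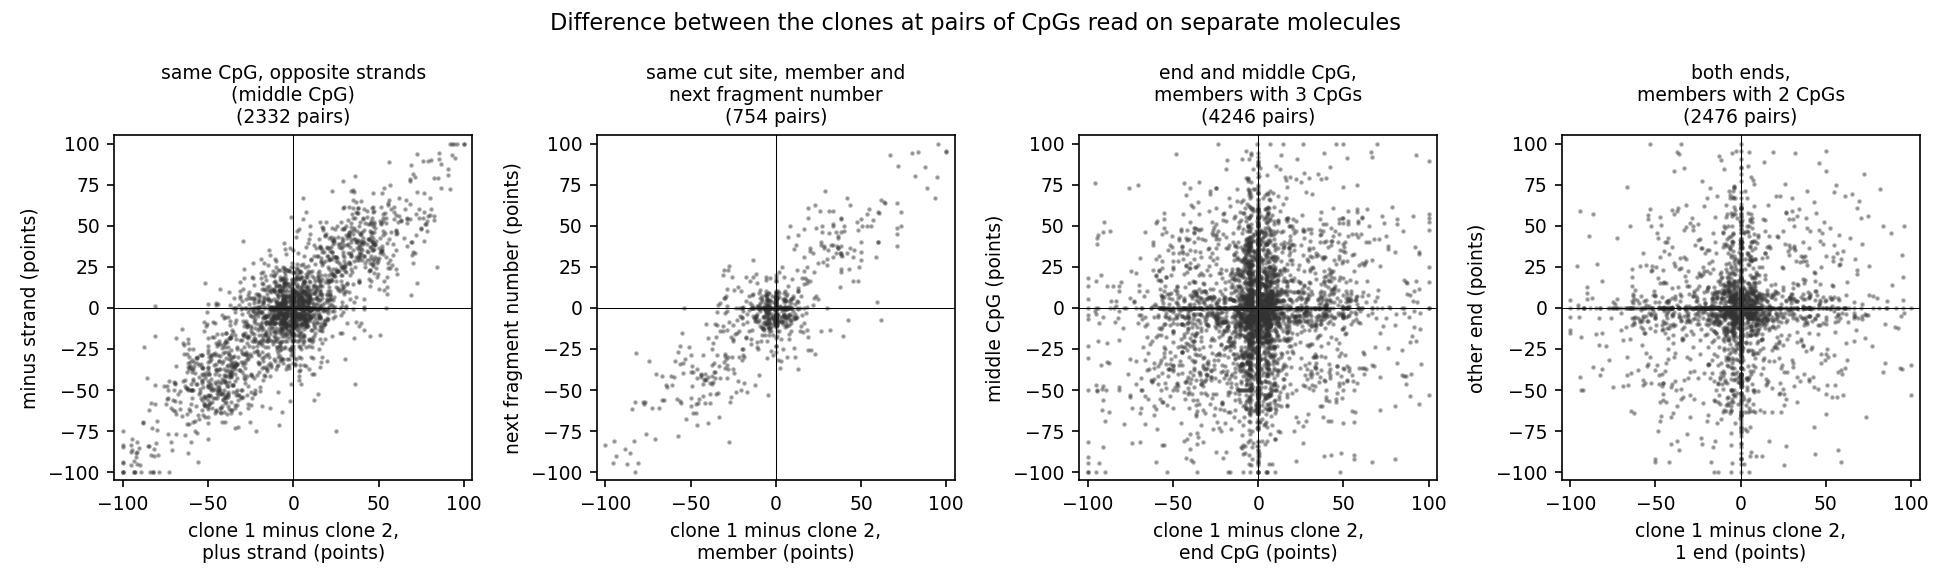
Difference in level between the clones (clone 1 minus clone 2, percentage points) at 1 CpG (x axis) and at a partner read on separate molecules (y axis), each point a pair with at least 10 calls per CpG and clone. The first panels, the same CpG on opposite strands (2332 pairs) and the same cut site in the next fragment number (754 pairs), lie along the diagonal, and the end and middle CpG (4246 pairs) and both ends of members with 2 CpGs (2476 pairs) form a cross about 0.

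The 10 members with the widest difference between the clones included some that differed at 1 CpG and some that differed at every CpG. At fragment 816891, with 3 CpGs, clone 1 had 46 of 47 methylated molecules (88.9 to 99.6%) and clone 2 had 1 of 43 (0.412 to 12.1%), with 10 of 14 on the even lines and an adjusted p of 1.96e-18 by Fisher's exact test. Its middle CpG had 41 of 41 methylated calls in clone 1 and 0 of 36 in clone 2, where both strands were read, with 0 of 22 and 0 of 14. Its last CpG was methylated in both clones, with 23 of 23 and 13 of 14 calls, and its first CpG had 21 of 22 and 11 of 24. The even lines had 6 of 10, 9 of 10 and 3 of 3 methylated calls from first to last.

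Fragment 1553788, with 3 CpGs, changed at its middle CpG while its last CpG stayed methylated. The middle CpG had 43 of 44 methylated calls in clone 1, 1 of 42 in clone 2 and 10 of 12 on the even lines. The last CpG had 21 of 21, 16 of 16 and 9 of 9, and the first CpG had no call in any library. Its molecules counted 43 of 44 in clone 1 and 1 of 42 in clone 2, with an adjusted p of 1.98e-17 by Fisher's exact test. Fragment 448029 had 41 of 42 methylated calls at its middle CpG in clone 1 and 0 of 25 in clone 2, and 12 of 14 at its first CpG in clone 2. Its neighbour 448030, with 3 CpGs, stood at 85.7% on the even lines, 89.7% in clone 1 and 80.3% in clone 2. Fragment 1458477 counted 0 of 12 methylated molecules in clone 2 though its middle CpG had 7 of 10 methylated calls there, since molecules with 1 of 2 calls methylated count as not methylated.

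Other fragments among those widest apart differed at every CpG. At fragment 744040, with 3 CpGs, clone 1 had 0 of 27 methylated molecules (0 to 12.5%) and clone 2 had 36 of 37 (86.2 to 99.5%), with 0 of 8 on the even lines and an adjusted p of 1.69e-13 by Fisher's exact test. From first to last its CpGs had 0 of 10, 0 of 26 and 0 of 12 methylated calls in clone 1, and 16 of 16, 33 of 34 and 19 of 19 in clone 2. Fragment 744041 beside it, with 9 CpGs, had 0 of 54 methylated calls in clone 1, 22 of 23 in clone 2 and 7 of 29 on the even lines. Fragment 744039 on its other side was methylated at 70.2% of 47 calls in clone 1 and 89.5% of 19 in clone 2.

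Fragment 842088, with 3 CpGs, likewise was methylated at 0 of 23 molecules in clone 1, 27 of 27 in clone 2 and 0 of 9 on the even lines (adjusted p 1.79e-11, Fisher's exact test). Its neighbour 842089, with 6 CpGs, stood at 32.7% of 49 calls in clone 1, 83.0% of 88 in clone 2 and 51.5% of 33 on the even lines. Fragment 900967 differed at its first CpG, with 0 of 12 and 12 of 12 methylated calls, and at its middle CpG, with 0 of 27 and 21 of 21, but not at its last, with 15 of 16 and 11 of 11.

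Among members with 2 CpGs, fragment 1304315 stood at 1 of 28 methylated molecules in clone 1 (interval 0.633 to 17.7%) against 24 of 24 in clone 2 (interval 86.2 to 100%), with 12 of 16 on the even lines and an adjusted p of 9.00e-11 by Fisher's exact test. Its first CpG had 0 of 25 and 19 of 19 methylated calls, and its last, read less, 1 of 3 and 5 of 5. Fragment 832983 had 48 of 51 methylated molecules in clone 1, 0 of 17 in clone 2 and 12 of 15 in the population (adjusted p 3.34e-10, Fisher's exact test). Both of its ends were unmethylated in clone 2, with 0 of 14 and 0 of 3 calls, and its first CpG had 35 of 35 methylated calls in clone 1. Fragment 1539790 was read at its first CpG alone, with 0 of 19 methylated calls in clone 1, 15 of 15 in clone 2 and 7 of 8 on the even lines.

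**Figure D5:**
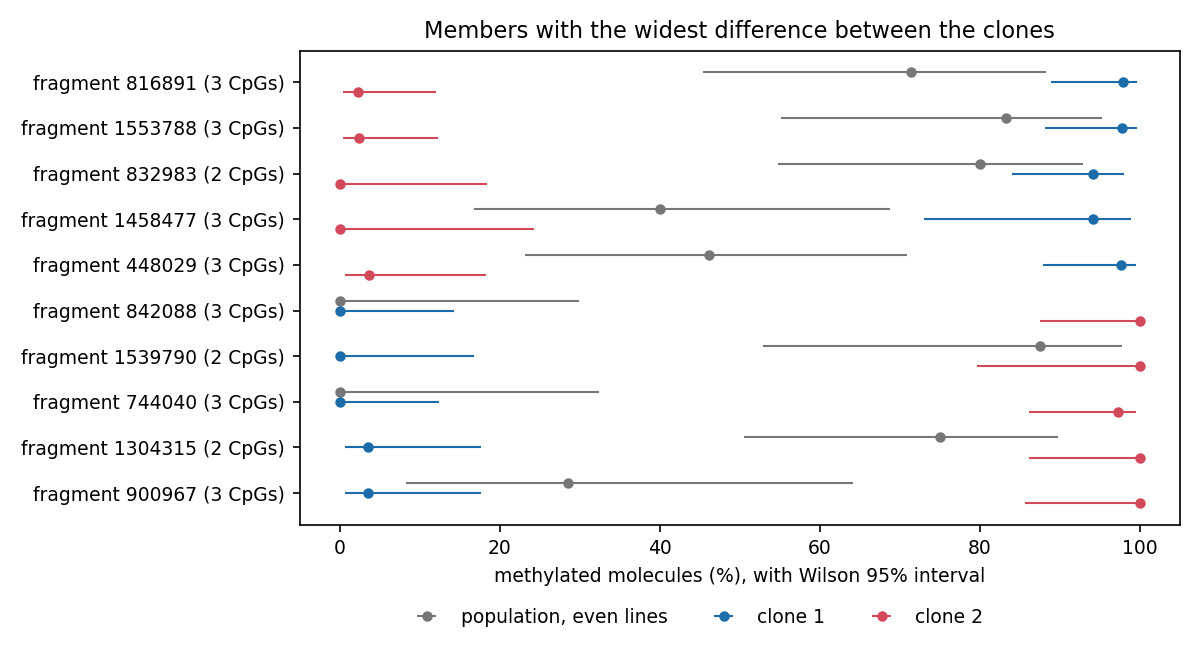
Share of methylated molecules (x axis, percent, with Wilson 95% intervals) of the 10 members with the widest difference between the clones, 5 per direction, in the population (grey, even lines), clone 1 (blue) and clone 2 (red). The members were chosen for their difference between the clones, so the gap between the clones follows from the choice. The clones lie near the ends of the axis, where most values fall between them. The population lies between the clones or, at 842088 and 744040, level with clone 1. Intervals cover counting error only.

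Neighbours of the members were more often intermediate themselves. Of 2312 fragments 1 number away from a member and with enough molecules in all libraries, 44.8% lay at 20 to 80% on their own odd lines, 46.4% above and 8.78% below. Over all 160499 fragments with enough molecules these shares were 16.1%, 60.9% and 23.0%. On the reading above, a fragment 1 number away shares a cut site with the member. At 2 numbers, where none is shared, 27.1% of 2063 were intermediate. At 10 numbers 22.0% of 2103 were. Around the fragments with 2 or 3 CpGs over 80%, the shares were 11.6%, 16.2% and 16.5% at 1, 2 and 10 numbers. These shares are a description, with no test.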

How the data were processed

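Reduced libraries of MspI fragments tagged with 6 bases were bisulfite converted and sequenced, per the labels' protocols. The submitters' processing notes name Bismark and mm9, while version, filters and the pooling of replicates were not given in the sources used here. The 3 deposited files have no header. Each line holds a fragment number, strand and tag, a string of methylation calls (other), a deposited read count and another whole number of unstated meaning, and was taken as 1 molecule. A fragment's level is the percent of methylated calls. The members and the rules were chosen with earlier results of these data known. Fragments were tested with a two-sided Fisher's exact test and Benjamini-Hochberg adjustment over all fragments with enough molecules (Python 3.11.15, numpy 2.4.6, scipy 1.17.1, numba 0.67.0). The pair difference was computed over CpGs with at least 2 calls in each library compared. Named fragments are drawn from the 5 called members that lay widest apart in each direction of a comparison. Tests and estimators were tested on simulated data. Wilson intervals (95%) cover counting error only. Separate molecules of a deep strand can share a tag and be merged.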

Additional observations from a re-analysis of the deposited data

Results flagged for a closer look

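The 1413 members called between clone 1 and clone 2 were picked out because both clones were set against 1 population and the difference between them was tested directly, by Fisher's exact test on their molecules. Of these members 590 were higher in clone 1 and 823 in clone 2, against 3.78% of all fragments called in that comparison. Each clone is 1 founder cell with pooled replicates, so clone and founder cannot be told apart.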

How the results depend on the processing

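Counts of calls are given for clone 1 and clone 2 against the population, then clone 1 against clone 2. They were 82, 67 and 794 with a molecule methylated at 50% or more of its observed CpGs, and 117, 92 and 793 for the 4743 members at 30 to 70%, where the shares called were 2.47, 1.94 and 16.7% against 2.06, 1.51 and 14.5%. With 20 molecules per clone and 10 per part of the population, 204, 171 and 1034 of 4766 members were called, shares of 4.28, 3.59 and 21.7%. The counts were 24, 24 and 552 on the plus strand, 26, 20 and 532 on the minus strand, and 1, 0 and 100 for molecules with 2 or more reads, which left 4622, 4595 and 2528 members. With 2 or more reads, Fisher's exact test gave 245, 291 and 503 of 2528 members at an unadjusted p under 0.05. The share over all fragments was taken under the main rules only. No count under another setting therefore has a background beside it. With calls at the CpG with most calls the first 2 counts were 340 and 260, and without strands over 25 molecules the first was 128. With the odd and even lines exchanged, which also changes the members, 228, 147 and 1396 were called, but only 63, 49 and 1005 of them in both settings. Calls made under both settings kept their direction, except 2 members (50% or more) and 4 (CpG with most calls) between the clones. The share of calls higher in clone 1 than the population was 29.2% on the plus strand. For clone 2 it was 70.7% at 30 to 70%, 45.8% on the plus strand and 14 of 20 on the minus strand. Members with 0 or 5 of 5 made up, in the population, clone 1 and clone 2, 42.7, 52.4 and 54.8% (50% or more), 32.4, 50.6 and 52.2% (CpG with most calls), 22.98, 35.5 and 37.0% (20 molecules per clone and 10 per part of the population), 19.5, 32.9 and 33.6% (30 to 70%), 28.1, 40.6 and 42.4% (2 or more reads), 28.8, 44.4 and 45.2% (plus strand), 29.8, 44.6 and 46.2% (minus strand), with 39.0% in clone 1 without deep strands. Pair differences were 0.347, 0.242 and 0.239 at 30 to 70%, and 0.276, 0.1998 and 0.195 with 2 or more reads. Shifts, in the order of the counts, were 0.159, 0.162 and 0.279 at 30 to 70%, 0.132, 0.138 and 0.248 with 2 or more reads, and 0.135 and 0.138 for the first 2 on the plus strand. Fewer members or molecules enter several of these settings, and other causes were not tested. Of the rest, 24 counts of calls lay within 1.5 times the main count, which does not say that the same members were called, and 21 pair differences, 19 shifts and 11 shares lay within a 95% Wilson interval about the main value, taken as a share of the members. Among these was the test stratified by strand, added after seeing the data. No paired analysis was possible because both replicates of a clone share 1 file, and for the same reason no replicate could be left out.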
